A study of Homo sapiens with 10 samples.

Results

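MAGE genes encode proteins that share the MAGE homology domain, a fold that binds RING-type ubiquitin ligases and steers what they act on. Type I genes (the MAGE-A, MAGE-B and MAGE-C groups, all on the X chromosome) are normally transcribed in germ cells of the testis and in placenta, are kept silent elsewhere largely by DNA methylation, and are reactivated in many tumours, where they are called cancer-testis antigens. Type II genes (among them MAGED1, MAGED2, MAGEE1, MAGEF1 and MAGEH1) are transcribed in many tissues, the nervous system included.

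The 10 genes described here are the type I genes MAGEA10, MAGEA8, MAGEA11, MAGEB2 and MAGEC1 and the type II genes MAGED1, MAGED2, MAGEE1, MAGEF1 and MAGEH1, 10 of 14232 genes named on the array. A gene was taken where the platform annotation of a probe set gave exactly 1 symbol equal to its name, and of several such probe sets the one brightest on average in the 10 arrays would have been chosen by that mean level. Each of the 10 genes had 1 such probe set, so the mean level decided nothing. MAGEA10 was singled out because its difference between the lines was already known. Its values are therefore a description, with no test drawn from them.

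RNA came from SH-SY5Y, an established human neuroblastoma line with noradrenergic properties, stably transfected with SOD1 constructs and kept in G418 (Geneticin). One line carried wild-type SOD1 (samples 2, 8, 11, 14 and 17) and the other the amyotrophic lateral sclerosis mutant SOD1(G93A) (samples 3, 9, 12, 15 and 18), with 5 arrays each. The design asks which genes differ between these lines. All values are gene-level log2 intensities, differences are given as the SOD1(G93A) mean less the wild-type mean with limma's moderated standard error (SE), and p-values come from limma, adjusted by the Benjamini-Hochberg method across the 22011 probe sets of the table. A gene is said to have risen or fallen where its adjusted p was at most 0.05. The labels do not say whether the 5 samples of a line were separate cultures or whether a line was 1 clone or a pool. The p-values thus reflect the scatter of these samples alone, which can be technical, and construct and line cannot be told apart. In such RNA of whole cultures, fewer cells transcribing a gene and less RNA per cell cannot be told apart either.

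Array medians lay between 6.26 and 6.34 and lower quartiles between 3.84 and 3.89. Correlations between arrays were 0.990 to 0.994 within the lines and 0.986 to 0.990 between them. SOD1 was read at 9.78 ± 0.13 (SD, n = 5) in the wild-type line and at 9.55 ± 0.09 (SD, n = 5) in the SOD1(G93A) line (adjusted p = 0.107 by limma), a value that does not tell mutant from wild-type sequence. Of 7 measured noradrenergic neuroblastoma markers, 6 had a mean above the median probe set, TH being the exception, and STMN2 was at 12.27 and 12.24. The lines differed in 3 of these 7 markers, where 9.60% of all named genes were called. CHGA (chromogranin A) was 1.06 higher in the SOD1(G93A) line (SE 0.12, adjusted p = 0.000216 by limma), and the transcription factors GATA2 and GATA3 fell by 0.58 (SE 0.08, adjusted p = 0.00131) and 0.38 (SE 0.07, adjusted p = 0.00732). The part of this marker difference in the values below was not tested. Of 8 measured germ cell markers, 7 had a mean below the lower quartile, DDX4 at 2.38 and 2.24 among them, and PIWIL1 was at 5.44 and 5.47. The mean of the 8 ran from 3.13 to 3.28 in the wild-type arrays and from 3.12 to 3.27 in the SOD1(G93A) arrays. The difference farthest from 0 among them was −0.14, in DDX4.

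The type I and type II genes differed in how they stood on the array before any comparison of the lines. Leaving MAGEA10 aside, the other 4 type I genes gave 40 values, of which 38 lay below the lower quartile of their array, between 2.56 and 3.85. None of the 50 type II values lay below it. They ran from 5.87 to 10.68. The table carries no detection calls, so a value below the lower quartile shows only that the probe set was dim, not that the gene was silent.

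**Figure D1:**
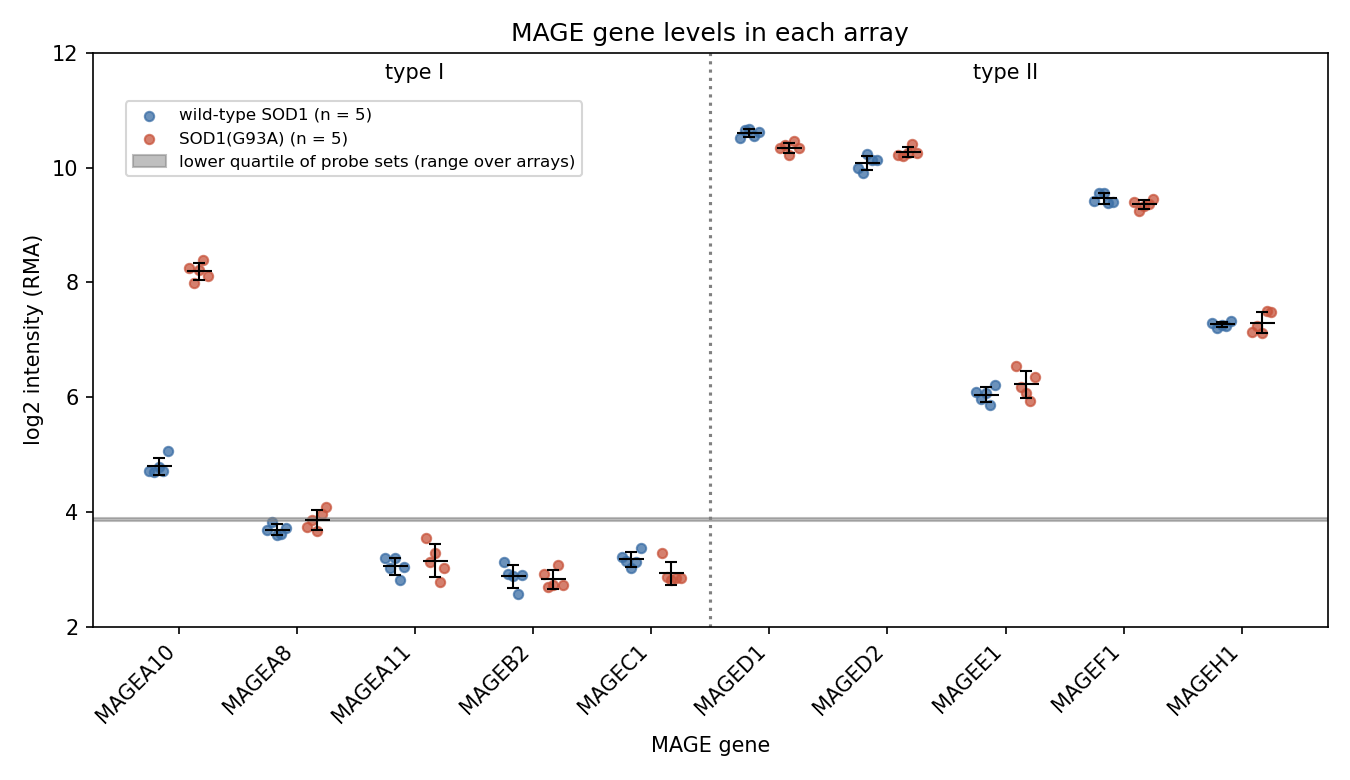
Log2 intensity (RMA) of the 10 MAGE genes in each array, with blue points for wild-type SOD1, red points for SOD1(G93A), black marks for mean ± SD (n = 5) and a grey band for the lower quartile of all probe sets. MAGEA10 lies between 4.70 and 5.06 in the wild-type arrays and between 7.99 and 8.39 in the SOD1(G93A) arrays, while the other type I genes stay near or under the band in both lines and the type II genes stay above it.

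MAGEA10, a tumour antigen of the MAGE-A group, was read at 4.71, 4.70, 4.79, 4.71 and 5.06 in wild-type samples 2, 8, 11, 14 and 17. In SOD1(G93A) samples 3, 9, 12, 15 and 18 it was read at 8.25, 7.99, 8.22, 8.39 and 8.12. Every SOD1(G93A) array was higher than every wild-type array, and the spread within each line was small (SD 0.15 and 0.15). The means, 4.79 and 8.19, differ by 3.40 on the log2 scale (SE 0.09, 95% interval 3.20 to 3.61), or 10.6-fold. This was the difference of rank 4 among the rises of all 14232 named genes. Even in the wild-type line all 5 values were above the lower quartile of their array.

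The other type I genes did not pass the test in either direction. MAGEA8, which lies on the same end of the X chromosome, was read at 3.68, 3.83, 3.59, 3.61 and 3.72 in the wild-type samples, in the order given above. It was read at 3.73, 3.85, 3.67, 3.96 and 4.08 in the SOD1(G93A) samples. The groups overlap, and the difference was 0.17 (95% interval −0.01 to 0.36, adjusted p = 0.316 by limma). The 2 values of these 4 genes above the lower quartile of their array were MAGEA8 in SOD1(G93A) samples 15 and 18.

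MAGEA11, a coregulator of the androgen receptor, had wild-type values of 3.19, 3.02, 3.19, 2.82 and 3.04. Its SOD1(G93A) values were 3.55, 3.12, 3.28, 2.78 and 3.02, with both the highest and the lowest of the 10 in that line. The difference was 0.10 (95% interval −0.19 to 0.39). MAGEB2, a testis protein that acts on stress granules, had a difference of −0.05 (95% interval −0.29 to 0.19), with 3.12, 2.92, 2.88, 2.56 and 2.90 in the wild-type and 2.92, 2.69, 2.72, 3.07 and 2.73 in the SOD1(G93A) arrays. All 20 values of these 2 genes were below the lower quartile, where differences are compressed, so these intervals bound the difference of the readings and not that of the transcripts.

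MAGEC1, an antigen known from multiple myeloma, was the type I gene with the lowest difference. Its wild-type values were 3.21, 3.15, 3.02, 3.12 and 3.37. In the SOD1(G93A) arrays it was read at 3.28, 2.86, 2.82, 2.84 and 2.85, so that 4 arrays lay together and sample 3 stood among the wild-type values. The difference was −0.25 (95% interval −0.46 to −0.03) and was not past the threshold (adjusted p = 0.203 by limma). Without SOD1(G93A) sample 3 it was −0.33 and passed (adjusted p = 0.0237 by limma), the 1 of 16 refits in which it did. The 5 values of each line lay below the lower quartile, where differences are compressed.

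Among the type II genes, MAGED1 fell. MAGED1 (also NRAGE) binds the neurotrophin receptor p75 and acts in neuronal apoptosis and differentiation. It was read at 10.51, 10.65, 10.68, 10.56 and 10.62 in the wild-type arrays and at 10.34, 10.39, 10.22, 10.46 and 10.34 in the SOD1(G93A) arrays. The groups did not overlap, although the gap between them was small. The difference was −0.25 (SE 0.06, 95% interval −0.38 to −0.12, adjusted p = 0.0271 by limma), a 1.19-fold lower level. Leaving out any 1 of wild-type samples 8, 11 and 17 and SOD1(G93A) samples 3, 12 and 18 ended the call, with adjusted p values of 0.0512 to 0.0692, as did taking adjacent sample numbers as a block (adjusted p = 0.107).

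MAGED2, which supports renal salt transporters and is mutated in a transient form of antenatal Bartter syndrome, leaned the other way without passing. Its values were 10.00, 9.91, 10.24, 10.13 and 10.13 in the wild-type and 10.23, 10.20, 10.26, 10.41 and 10.26 in the SOD1(G93A) arrays. The groups overlapped through wild-type sample 11, and the difference was 0.19 (95% interval 0.03 to 0.35, adjusted p = 0.179 by limma).

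For the remaining type II genes the intervals of the difference included 0. MAGEE1, which binds the dystrophin-associated protein alpha-dystrobrevin, was read at 6.09, 5.97, 6.08, 5.87 and 6.21 with wild-type SOD1 and at 6.55, 6.18, 6.08, 5.94 and 6.36 with SOD1(G93A). The difference was 0.18 (95% interval −0.08 to 0.43), and the SOD1(G93A) arrays spread more widely (SD 0.24 against 0.13). MAGEF1, the gene of the 10 that lies on chromosome 3 and not on the X, forms a ubiquitin ligase with NSMCE1. Its values were 9.42, 9.56, 9.56, 9.38 and 9.40 against 9.41, 9.24, 9.33, 9.37 and 9.45, a difference of −0.10 (95% interval −0.24 to 0.03). MAGEH1, another protein that binds the p75 receptor, gave 7.30, 7.21, 7.26, 7.24 and 7.33 against 7.14, 7.24, 7.12, 7.50 and 7.49. Its difference was 0.03 (95% interval −0.16 to 0.22), with SOD1(G93A) samples 15 and 18 above all wild-type arrays and samples 3 and 12 below them.

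Counted over the 10 genes, MAGEA10 was called higher and MAGED1 lower, and 8 were not called. Among all named genes 9.60% were called in either direction, 4.03% higher and 5.57% lower, and among all probe sets 7.46%. The groups did not overlap for 2 of the 10, against 11.4% of named genes. With a 2-fold difference also required, as in the authors' own list of changed genes per the labels, 1 of the 10 remained (MAGEA10), against 1.18% of named genes. The median difference was 0.10 over the type I genes, 0.03 over the type II genes and 0.00 over all probe sets. MAGEA10 is in these counts and was known to differ, so they are a description of the set.

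**Figure D2:**
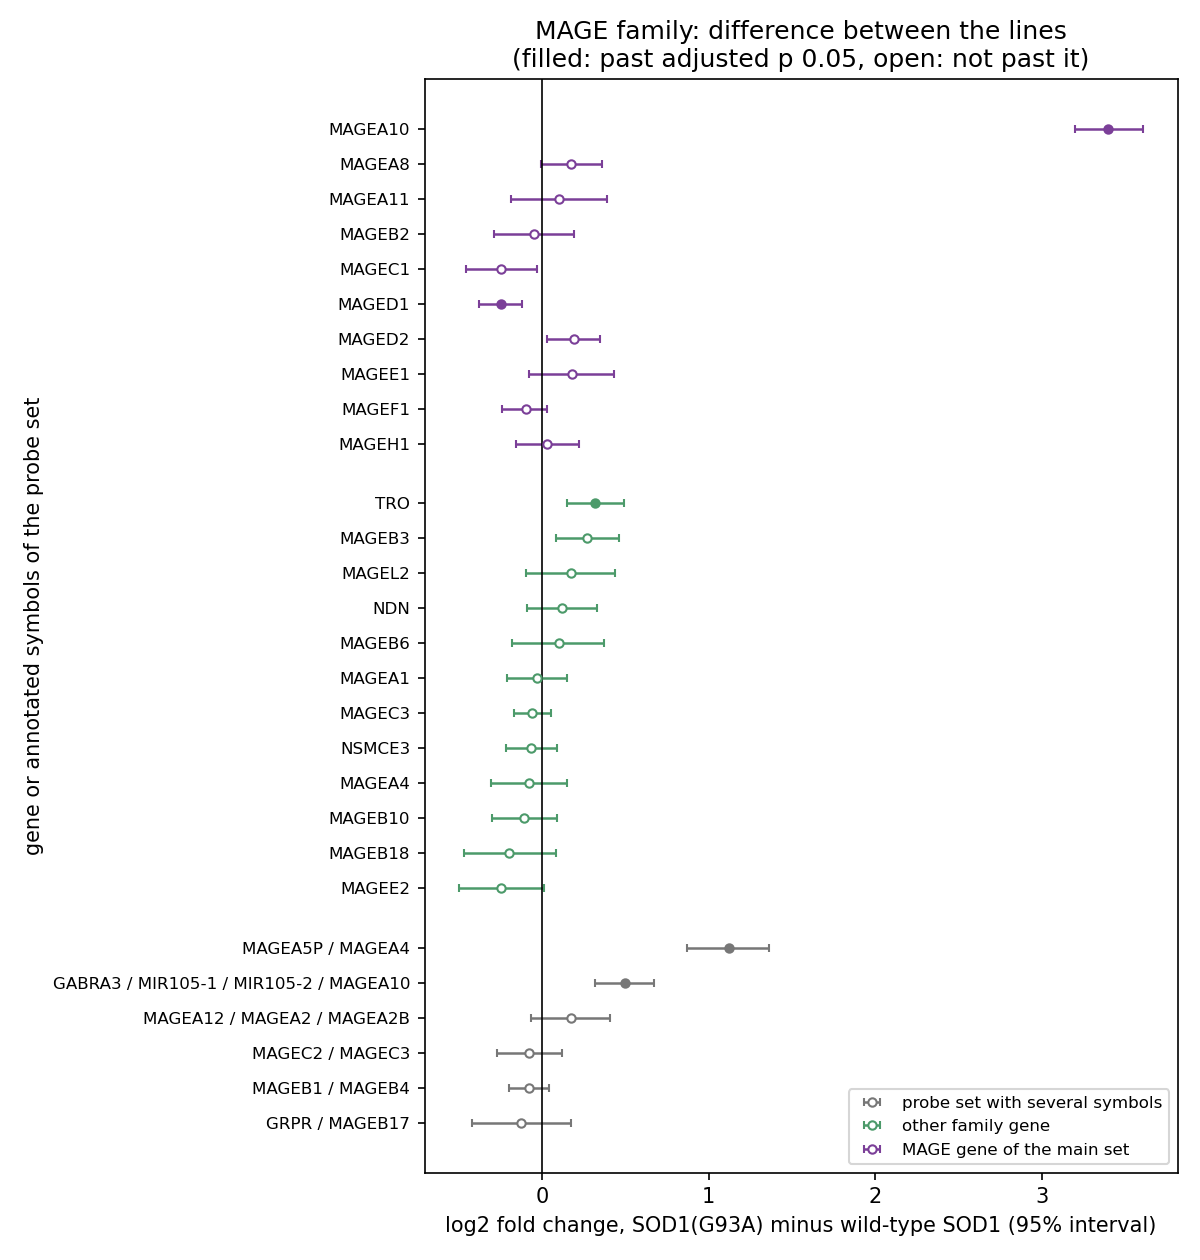
Log2 fold change, SOD1(G93A) minus wild-type SOD1, with 95% intervals, of the 10 genes (purple), of 12 other genes of the family (green) and of 6 probe sets annotated with several symbols (grey), with filled points for an adjusted p of 0.05 or less. MAGEA10 stands at 3.40, the probe set annotated MAGEA5P and MAGEA4 at 1.12 and that annotated GABRA3, MIR105-1, MIR105-2 and MAGEA10 at 0.50, while all other points lie between −0.25 and 0.32.

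The rest of the family was mostly dim and mostly not called. Of 27 further genes with a MAGE homology domain, 12 had a probe set with 1 symbol, and 9 of these had a mean below the lower quartile. TRO (trophinin), a type II gene of cell adhesion, was the 1 of the 12 called, against 9.60% of all named genes, and rose. Its wild-type values were 7.35, 7.38, 7.28, 7.49 and 7.55, and its SOD1(G93A) values 7.56, 7.70, 7.70, 7.91 and 7.79. The groups touched without overlapping, and the difference was 0.32 (SE 0.08, adjusted p = 0.0279 by limma). Leaving out any 1 of wild-type samples 2, 8 and 11 and SOD1(G93A) samples 9, 15 and 18 ended this call, with adjusted p values of 0.0548 to 0.0696.

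None of the other 11 passed. MAGEB3 was at 2.90 ± 0.12 (SD, n = 5) and 3.17 ± 0.15 (SD, n = 5), a difference of 0.27 with an adjusted p of 0.0964 by limma. The imprinted neuronal genes MAGEL2 and NDN, both dim here, differed by 0.17 (95% interval −0.10 to 0.44) and 0.12 (95% interval −0.09 to 0.33). NSMCE3, the MAGE subunit of the SMC5/6 complex of DNA repair, differed by −0.07 (95% interval −0.22 to 0.09). MAGEA1 and MAGEA4, the other MAGE-A genes with a probe set of 1 symbol, differed by −0.03 and −0.08. The median of the 12 was −0.04.

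MAGE-A genes are close paralogs, and 6 probe sets carried a family symbol together with others, so none of them can be given to 1 gene. Probe sets annotated at the MAGEA10 locus itself were among them and also rose. One is annotated to MAGEA5P, a transcribed pseudogene, and to MAGEA4. It was read at 4.03, 3.95, 3.83, 4.32 and 3.99 in the wild-type arrays and at 5.35, 5.33, 5.03, 4.99 and 4.98 in the SOD1(G93A) arrays. The groups were well apart, and the difference was 1.12 (SE 0.11, adjusted p = 8.96e-05 by limma), or 2.17-fold. The probe set annotated to MAGEA4 alone did not rise (2.85 ± 0.06 against 2.77 ± 0.24, SD, n = 5 each). It lay below the lower quartile in the 5 arrays of each line, where differences are compressed.

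The other such probe set is annotated to GABRA3, a GABA-A receptor subunit, to the microRNA genes MIR105-1 and MIR105-2 and to MAGEA10. It was read at 5.91, 6.03, 6.02, 5.79 and 5.76 against 6.31, 6.59, 6.42, 6.28 and 6.41, again with no overlap (difference 0.50, SE 0.08, adjusted p = 0.00256 by limma). In the order of the RefSeq gene table (GRCh38.p14), MAGEA5P, MAGEA10 and GABRA3 follow each other, and a protein-coding locus, LOC100533997, spans MAGEA5P and MAGEA10 together. Which of these transcripts the probes read was not tested. The remaining 4 probe sets with several symbols, among them that of MAGEA12, MAGEA2 and MAGEA2B at 5.66 ± 0.07 and 5.83 ± 0.25 (SD, n = 5 each), were not called, with differences of −0.13 to 0.17.

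Genes with a probe set of 1 symbol that lie next to the 10, those around MAGEA10 included, were mostly not called. The 3 nearest measured genes with 1 symbol on each side of each gene gave 47 different neighbours outside the family. Of these 2 rose and 2 fell, against 4.03% and 5.57% of all named genes. Their median difference was 0.00. Of the 490 named genes of the X chromosome 11.0% were called, 6.53% higher and 4.49% lower.

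**Figure D3:**
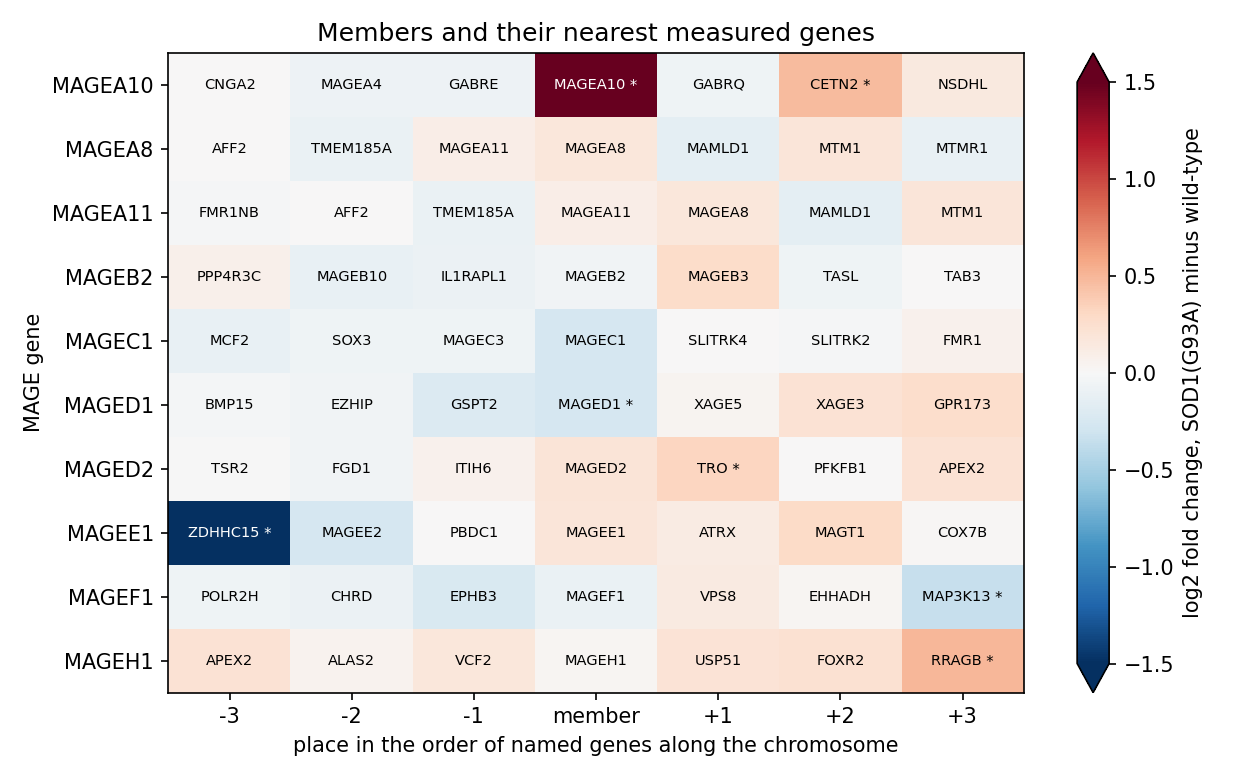
Log2 fold change, SOD1(G93A) minus wild-type SOD1, of the 10 MAGE genes (middle column) and of the 3 nearest named genes on each side in chromosomal order, with an asterisk for an adjusted p of at most 0.05 and colours saturating at ±1.5. Among genes with a probe set of 1 symbol, MAGEA10 at 3.40 stands beside GABRE at −0.08 and GABRQ at −0.06. MAGEA5P and GABRA3 lie nearer to MAGEA10. Their probe sets with several symbols, at 1.12 and 0.50, are not drawn. ZDHHC15, a neighbour of MAGEE1, is at −1.53.

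The measured genes next to MAGEA10 with 1 symbol were GABRE and GABRQ, both GABA-A receptor subunits, and neither was called (differences −0.08, SE 0.11, and −0.06, SE 0.06). CETN2, which encodes centrin 2 of the centrosome and of nucleotide excision repair, rose. It is the next gene after GABRQ with a probe set of 1 symbol. Other genes, MAGEA3, MAGEA12, MAGEA2 and MAGEA6 among them, lie between GABRQ and CETN2. CETN2 was read at 9.84, 9.89, 9.46, 9.51 and 9.71 against 10.28, 10.22, 9.96, 10.26 and 10.02. The groups did not overlap (difference 0.47, SE 0.10, adjusted p = 0.0182 by limma), and the call was lost without SOD1(G93A) sample 15 (adjusted p = 0.0517). NSDHL, an enzyme of cholesterol synthesis, came next and was not called (0.15).

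Around MAGEH1 all 6 neighbours had a positive difference, from 0.05 to 0.50, although MAGEH1 itself was at 0.03. One of them was called, RRAGB, a GTPase that recruits mTORC1 to the lysosome, with 6.32, 6.29, 6.46, 6.31 and 6.37 against 6.85, 6.90, 6.39, 7.04 and 7.07. SOD1(G93A) sample 12 lay within the wild-type range (difference 0.50, SE 0.12, adjusted p = 0.0249 by limma), and the call was lost without any 1 of 8 arrays. TRO, which rose, is the next measured gene to MAGED2 in the same part of the X chromosome. The other measured neighbours of MAGED2 were not called. They were TSR2 (−0.01), FGD1 (−0.05), ITIH6 (0.06), PFKFB1 (0.01) and APEX2 (0.22). The signs of neighbouring genes were not tested.

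Near MAGEE1, ZDHHC15, a palmitoyltransferase, fell from 4.90 ± 0.06 to 3.37 ± 0.04 (SD, n = 5 each; difference −1.53, SE 0.05, adjusted p = 2.35e-08 by limma). It ended below the lower quartile in all 5 SOD1(G93A) arrays. Between it and MAGEE1 lie MAGEE2 and PBDC1, with differences of −0.25 and 0.01 that were not called. Near MAGEF1, MAP3K13, a kinase of axon injury signalling, fell by 0.34 (SE 0.09, adjusted p = 0.0422 by limma), a call lost without any 1 of 8 arrays.

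**Figure D4:**
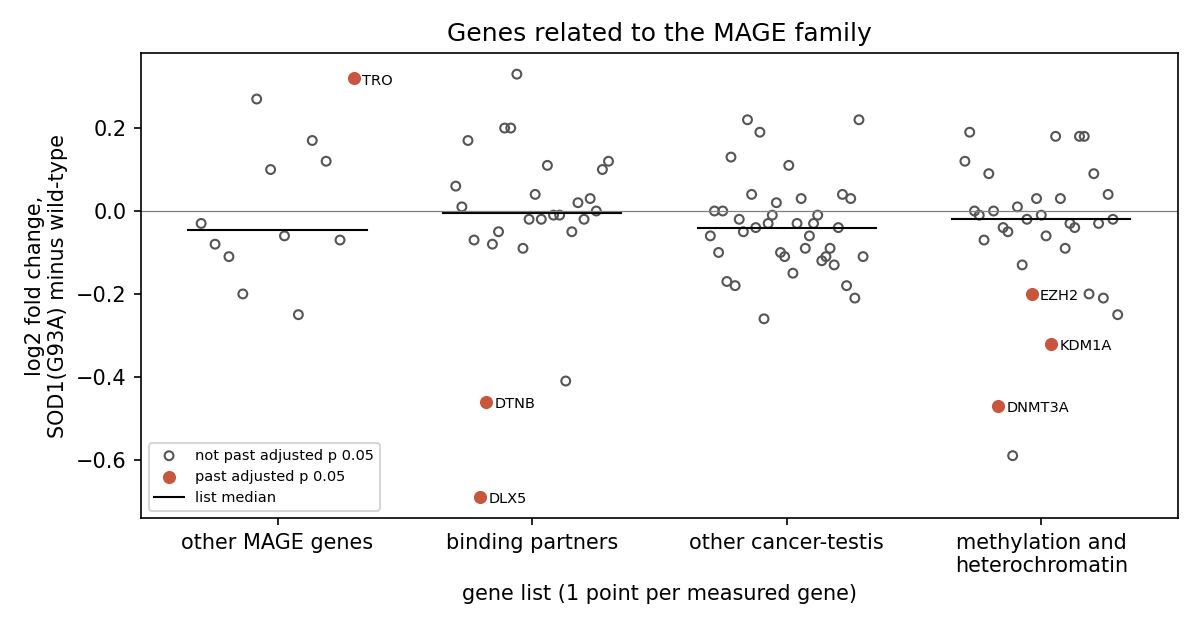
Log2 fold change, SOD1(G93A) minus wild-type SOD1, of each measured gene in 4 lists, with filled red points for an adjusted p of 0.05 or less and black lines for list medians. The medians lie between −0.04 and −0.01, and the filled points are TRO in the family list, 2 of 26 listed partners and 3 of 33 heterochromatin genes, where 9.60% of all named genes were called.

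Listed partners of MAGE proteins were mostly not called. Besides direct partners, the list holds DTNB, a relative of such a partner. Of 35 listed, 26 were measured, 0 rose and 2 fell, near the share of all named genes (9.60% called, 5.57% lower), and their median difference was −0.01. DLX5, a homeodomain factor bound by MAGED1, was at 5.35 ± 0.33 (SD, n = 5) in the wild-type and 4.65 ± 0.19 (SD, n = 5) in the SOD1(G93A) arrays. The groups did not overlap, and the difference was −0.69 (SE 0.15, adjusted p = 0.0186 by limma). The call was lost without SOD1(G93A) sample 15, with adjacent sample numbers as a block, and without moderation of the variance. DTNB, which encodes beta-dystrobrevin, a relative of the MAGEE1 partner, fell from 8.50 ± 0.02 to 8.04 ± 0.04 (SD, n = 5 each; difference −0.46, SE 0.04, adjusted p = 7.90e-05 by limma). DTNB lies on chromosome 2 in a stretch of genes, from SH3YL1 to ACYP2, in which 101 of 201 named genes were called lower and 2 higher; the part of that stretch in its fall was not tested.

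Direct partners of the type II genes, and TRIM28 as a partner of type I proteins, were read as follows. NGFR, the p75 receptor bound by MAGED1 and MAGEH1, was at 5.87 ± 0.26 and 6.21 ± 0.09 (SD, n = 5 each), a difference of 0.33 that missed the threshold (adjusted p = 0.123 by limma). PJA1, the ubiquitin ligase partner of MAGED1, differed by −0.02 (95% interval −0.21 to 0.17). NSMCE1, the ligase partner of MAGEF1, differed by −0.09 (95% interval −0.30 to 0.12), and MMS19, the iron-sulfur assembly factor which that ligase marks for breakdown, by 0.20 (95% interval −0.01 to 0.40). GNAS, the stimulatory G protein subunit tied to MAGED2, differed by −0.08 (95% interval −0.21 to 0.05). TRIM28, the ligase that several type I proteins bind, was high in both lines (10.97 ± 0.10 and 10.99 ± 0.05, SD, n = 5 each).

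Cancer-testis genes outside the MAGE family were not called in this comparison. Of 54 listed, 38 were measured and 0 were called by limma, against 9.60% of all named genes. At an unadjusted limma p under 0.05 there were 6 of the 38, against 3087 of the 14232 named genes. Without moderation of the variance 1 was called, TMEFF2, which was at 4.70 ± 0.05 and 4.52 ± 0.07 (SD, n = 5 each). Differences ran from −0.26 to 0.22 with a median of −0.04, and 20 of the 38 had a mean below the lower quartile. Differences of such dim probe sets are compressed, so their missing calls say little about the transcripts. Only 9 of the 38 had a mean above the median probe set. CTAG2, an X-linked cancer-testis antigen of the NY-ESO-1 family, was not dim (6.24 ± 0.13 and 6.06 ± 0.13, SD, n = 5 each) and differed by −0.18 (adjusted p = 0.271 by limma). It was chosen after its values were seen.

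Listed genes that act on DNA methylation and heterochromatin were called about as often as other genes. Not all of them silence genes, since the list also holds TET1, TET2, TET3 and CTCF. Of 33 measured of 38 listed, 0 rose and 3 fell, against 9.60% called and 5.57% lower among all named genes, with a median of −0.02. DNMT3A, a de novo DNA methyltransferase, was read at 8.99, 8.54, 8.63, 8.86 and 8.83 against 8.29, 8.02, 8.49, 8.20 and 8.52. The groups came close without overlapping (difference −0.47, SE 0.11, adjusted p = 0.0318 by limma). DNMT3A is the next named gene to DTNB in the stretch of chromosome 2 described above. EZH2, the histone H3 lysine 27 methyltransferase, fell by 0.20 (SE 0.05, adjusted p = 0.0407 by limma) and KDM1A, a histone demethylase, by 0.32 (SE 0.08, adjusted p = 0.0415 by limma), whose groups overlapped. Each of these calls was lost without any 1 of 6 (DNMT3A), 9 (EZH2) or 8 (KDM1A) arrays, and without samples 2, 3, 9, 14, 15 or 17, each left out alone, 0 of the 33 were called.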

How the data were processed

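The deposited table holds gene-level log2 intensities of 22011 probe sets on 10 exon arrays. The authors made them with RMA, per the submitters' processing notes, in oneChannelGUI 1.6.5, per the labels. RMA aligns the arrays' distributions, which hides any shift common to all genes, and compresses differences of dim probe sets. The genome build, not given in the sources used here, was not needed. Precision is limited by the number of arrays.

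Of the probe sets, 14432 had 1 symbol in the platform annotation, 2408 several and 5171 none. Symbols were updated by gene identifier through the RefSeq gene table (GRCh38.p14; 28 not matched), which also gave the order of genes. Groups came from the sample titles. Differences were tested with limma 3.58.1 under R 4.3.3 (lmFit, eBayes, 2-sided, no filter on level), checked on simulated data. Intervals are 95% and not adjusted for the number of genes.

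The members, lists and naming rule were chosen with earlier results of these data known. The rule named all 10 members, up to 4 called genes a list by size of change, up to 6 called neighbours, and the partners of members. Other uncalled genes named from the lists or as neighbours fall outside this rule. They were chosen with their values known, MAGEB3 and TMEFF2 among them. Alternatives were each array left out, a filter on level, median centring, repeated quantile normalization, no moderation, an intensity trend, adjacent sample numbers as a block, a 2-fold threshold and all single-symbol probe sets. Leaving out samples 17 and 18 together was added after the data were seen.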

Additional observations from a re-analysis of the deposited data

Results flagged for a closer look

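For the 10 genes and the other called genes, 40 groups of 5 arrays were examined for an array far from the rest, which chance gives in about 1 in 20 groups, and 3 were found. MAGEA10 in wild-type sample 17 was 5.06, against 4.79 in the nearest wild-type array; without that array the difference between the lines was 3.47. MAGEC1 in SOD1(G93A) sample 3 was 3.28, against 2.86 in the nearest array of its line. DTNB in SOD1(G93A) sample 3 was 8.11, against 8.03 in the nearest.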

How the results depend on the processing

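The difference of MAGEA10 lay between 3.35 and 3.49 over 17 refits, a description since the gene was chosen for it. The probe sets annotated MAGEA5P and MAGEA4 (1.06 to 1.19) and GABRA3 to MAGEA10 (0.45 to 0.53) stayed called under the 16 that held them. Leaving out 1 array in turn gave 1 to 2 called of the 10 genes, 0 to 1 of the other family genes, 1 to 4 of the partners, 0 to 1 of the cancer-testis genes, 0 to 4 of the methylation and heterochromatin genes, 1 to 4 of the neighbours and 1274 to 1562 of all probe sets, with fewer arrays in each such fit. Differences near 0 changed sign without 1 array: MAGEA11 (−0.001 without SOD1(G93A) sample 3; range to 0.191), MAGEB2 (0.01 without wild-type sample 2; range to −0.13) and MAGEH1 (−0.018 and −0.015 without SOD1(G93A) samples 15 and 18; range to 0.078). With adjacent sample numbers as a block, 1 of the 10 genes, 1 listed partner (DTNB), 1 heterochromatin gene and 2 neighbours were called, and MAGED1 was lost (adjusted p = 0.107 by limma). The groups share no sample number, and the labels do not say whether adjacent numbers mark pairs. The deviations of adjacent numbers correlated at −0.034 to 0.142. The adjacent SOD1(G93A) array was the best match for wild-type samples 8 and 11 but not for 2, 14 and 17. The main fit took the samples as unpaired, and these values cannot tell whether they were paired. Without moderation 1 listed partner (DTNB), 1 cancer-testis gene and 1 heterochromatin gene were called. Without samples 17 and 18 together 1 of the 10, 0 family genes and 1 heterochromatin gene were called. A 2-fold threshold, stricter by construction, left 1 of the 10, 0 family genes, 0 partners, 0 heterochromatin genes, 1 neighbour and 192 probe sets. Apart from these, the cause of a changed call was not tested. For the 4 dim type I genes, signal over background limits what can be seen.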
